A study of Rattus norvegicus with 3 samples.

Results

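The nuclei described here were oligodendrocyte nuclei of the rat nucleus accumbens with at least 3 transcripts in sum from Klk6, Slc5a11, Rasgrp3 and Cldn14. They numbered 857 of 10806 nuclei. Membership was set by counts of unique molecular identifiers (UMIs, each standing for 1 captured transcript). A nucleus had to show 500 genes or more, with mitochondrial UMIs at 5% of its total or below. It needed at least 10 UMIs in sum from 10 oligodendrocyte genes (Mog, Mag, Mal, Opalin, Ermn, Aspa, Cldn11, St18, Prr5l and Mobp). It could hold fewer than 10 from 5 genes of spiny neurons (Ppp1r1b, Bcl11b, Pde10a, Rgs9 and Rarb) and at most 1 of Gpr17, a marker of committed precursors. Nuclei with at least 3 UMIs in sum from Klk6, Slc5a11, Rasgrp3 and Cldn14 (the subset sum) formed the high gate. Nuclei with a subset sum of at most 1, of which there were 1480, formed the low gate, and 426 nuclei with a sum of 2 lay between them.

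The study took accumbens punches from outbred Wistar rats at 16 weeks of age, sorted by how anxious they had been in behavioural tests. It made 3 libraries: high anxiety rats given urolithin A for 2 months (below, urolithin A), high anxiety rats without it, and low anxiety rats, so that both of the first 2 libraries came from high anxiety animals. Urolithin A is made by gut bacteria from dietary ellagitannins and is a known inducer of mitophagy, the removal of worn mitochondria. Tissue of 5 hemispheres went into each library. With 1 library per group the spread between animals was not measured and no test was made. Intervals are at the 95% level and cover counting error alone.

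Oligodendrocytes wrap axons in myelin, and in mouse and rat brain their mature forms fall into states that differ in a limited set of genes. Klk6 encodes a secreted serine protease, Slc5a11 a sodium-coupled inositol transporter, Rasgrp3 an exchange factor that activates Ras and Rap, and Cldn14 a claudin of tight junctions. Hapln2, the fifth gene given as a marker, encodes a link protein that ties hyaluronan to proteoglycans in the matrix around nodes of Ranvier, and the membership rule did not use it.

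Sequences upstream of 4 of these 5 genes are shown because the 5 were given as markers of the nuclei. The RefSeq promoters used held none for Slc5a11. The sequences are the 250 bases before the start site as RefSeq gives it on build GRCr8, written 5′ to 3′ along the gene. The windows are chr1:103415266-103415515 on the plus strand for Klk6, and on the minus strand chr6:25710592-25710841 for Rasgrp3, chr11:46711739-46711988 for Cldn14 and chr2:175794439-175794688 for Hapln2. Capitals mark the letters ACAAAG and ACAATG, cores that SOX proteins such as the oligodendrocyte factor SOX10 are known to bind, searched on both strands.
Klk6: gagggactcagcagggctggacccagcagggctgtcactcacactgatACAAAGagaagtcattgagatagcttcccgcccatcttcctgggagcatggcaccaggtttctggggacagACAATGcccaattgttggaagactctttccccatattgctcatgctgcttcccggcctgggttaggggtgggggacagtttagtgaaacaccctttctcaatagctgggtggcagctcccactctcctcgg
Rasgrp3: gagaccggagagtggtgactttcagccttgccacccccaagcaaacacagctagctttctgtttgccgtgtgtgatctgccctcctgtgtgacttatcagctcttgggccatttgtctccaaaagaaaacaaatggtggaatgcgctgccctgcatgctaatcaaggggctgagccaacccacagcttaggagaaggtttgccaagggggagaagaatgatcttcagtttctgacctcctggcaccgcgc
Cldn14: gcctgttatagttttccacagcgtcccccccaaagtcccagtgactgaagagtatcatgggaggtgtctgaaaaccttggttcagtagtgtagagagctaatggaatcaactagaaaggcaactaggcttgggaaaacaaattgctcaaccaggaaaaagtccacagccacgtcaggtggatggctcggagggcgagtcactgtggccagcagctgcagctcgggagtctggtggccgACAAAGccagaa
Hapln2: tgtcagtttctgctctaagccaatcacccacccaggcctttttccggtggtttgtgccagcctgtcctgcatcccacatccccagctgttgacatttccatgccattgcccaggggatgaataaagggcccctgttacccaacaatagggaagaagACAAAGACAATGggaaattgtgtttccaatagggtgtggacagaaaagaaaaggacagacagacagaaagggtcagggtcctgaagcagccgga
Klk6 and Hapln2 each held both motifs, which 2.1% of 33469 rat windows of this length did. In Klk6 the 2 began 202 and 131 bases before the start site, and in Hapln2 they followed each other directly, from 94 and 88 bases before it. Cldn14 held ACAAAG alone, 12 bases before its start site, and Rasgrp3 held none. At least 1 of the 2 was found in 25.3% of all windows, ACAAAG in 16.3% and ACAATG in 11.1%. A match describes the letters only.

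The 857 nuclei comprised 284 of 3520 in the urolithin A library, 376 of 3810 in the high anxiety library and 197 of 3476 in the low anxiety library. The deposited totals were 19162530 UMIs in urolithin A, 22095390 in high anxiety and 16728049 in low anxiety. High gate nuclei had medians of 2560.5, 2497.5 and 2194 UMIs in urolithin A, high anxiety and low anxiety, against 2033, 2211 and 1694 in the low gate nuclei of the same libraries, so the high gate was the deeper one in each. Pairs of libraries shared 4 to 6 barcode sequences, and no shared barcode was in the high gate of both libraries. A doublet score marked 5, 10 and 3 of the high gate nuclei in that order of libraries.

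Hapln2, the marker outside the rule, was present in 97.3% of the 857 nuclei and in 70.3% of low gate nuclei. The rule set the sum of its 4 genes but no single one of them, and their makeup is given as a description. Klk6 was present in 96.5% and gave 62.4% of the UMIs of the subset sum. Slc5a11 was present in 57.9%, Rasgrp3 in 50.4% and Cldn14 in 7.58%. Klk6, Slc5a11 and Rasgrp3 were seen together in 245 nuclei (28.6%), while 665 nuclei (77.6%) held at least 2 of the 4 genes and 181 were members through Klk6 alone. In spiny neuron nuclei of the same libraries, which should lack Klk6, it was seen in 0.796%, 0.781% and 0.788% of nuclei (urolithin A, high anxiety, low anxiety) at medians of 6792, 7774 and 6207 UMIs. The subset sum had a median of 4 in each library and reached 17 in urolithin A, 22 in high anxiety and 13 in low anxiety. The nuclei just inside the threshold, with a sum of 3, numbered 95 in urolithin A, 106 in high anxiety and 71 in low anxiety, and those just outside it, with a sum of 2, numbered 153, 149 and 124.

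High gate nuclei made up 29.6% of oligodendrocyte nuclei in urolithin A (26.7% to 32.6%), 34.7% in high anxiety (31.8% to 37.6%) and 27.4% in low anxiety (24.2% to 30.8%). The high anxiety share was thus the highest, and its interval did not reach that of low anxiety. When each nucleus was thinned to 1500 UMIs and shallower nuclei were left out (128, 91 and 177 in the 3 libraries), the shares were 18.3% in urolithin A (15.7% to 21.1%), 19.5% in high anxiety (17.1% to 22.1%) and 19.7% in low anxiety (16.5% to 23.3%). At equal depth the 3 intervals overlapped and the order of the libraries was gone. Without thinning, the same deeper nuclei gave 32.9% in urolithin A (29.7% to 36.2%), 35.8% in high anxiety (32.8% to 38.9%) and 32.3% in low anxiety (28.4% to 36.4%). These intervals overlapped too, so the separation was already lost when the shallower nuclei were left out. The order of the libraries was still that of all nuclei before thinning.

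**Figure D1:**
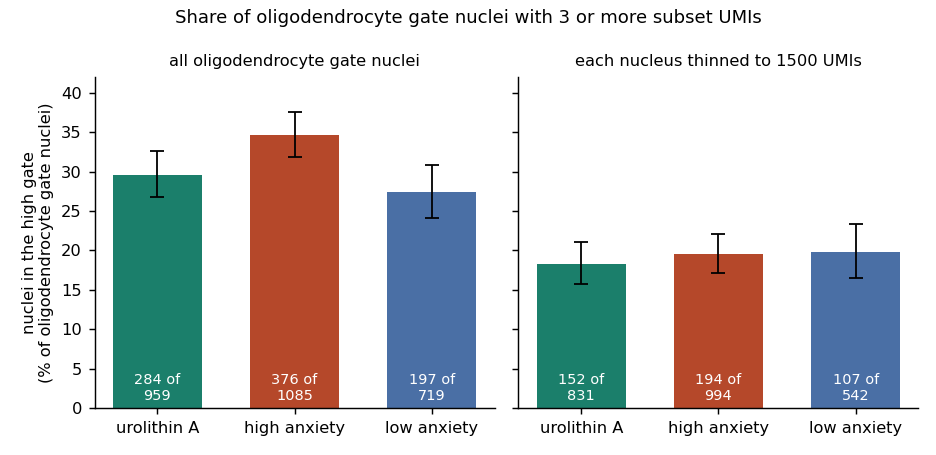
Share of oligodendrocyte gate nuclei that lie in the high gate (percent, vertical axis) in the urolithin A, high anxiety and low anxiety libraries, for all nuclei (left) and with each nucleus thinned to 1500 UMIs (right). Bars give the share, error bars exact binomial 95% intervals, and white text the nuclei counted; the left bars stand at 29.6%, 34.7% and 27.4% and the right bars at 18.3%, 19.5% and 19.7%.

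The high gate was then set beside the low gate within each library. These values describe the gate and are no test, because the gate was chosen on the counts of the same nuclei. Levels are UMIs of a gene per 1000000 UMIs of the gate (CPM), and ratios are log2 of high gate over low gate, with 0.5 counts added. Of 7213 genes outside the gate with at least 100 UMIs over both gates, 130 (1.80%) stood 1.5-fold or more above the low gate in each of the 3 libraries, and 164 (2.27%) stood 1.5-fold or more below it in each.

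Among the 4 genes of the rule, Klk6 stood at 1220, 1137 and 1264 CPM in the high gate of urolithin A, high anxiety and low anxiety, against 135, 121 and 154 CPM in the low gate. Slc5a11 stood at 348, 332 and 411 CPM in the high gate, against 21.1, 24.5 and 20.5 CPM in the low gate. Rasgrp3 stood at 318, 338 and 339 CPM, against 7.31, 11.9 and 16.7 CPM. These differences follow from the rule. Hapln2, which the rule did not use, was at 2472, 2636 and 3122 CPM in the high gate of the 3 libraries, against 923, 965 and 1353 CPM in the low gate, a mean log2 ratio of 1.36 ± 0.13 (SD over 3 libraries). Its high gate values did not overlap those of the low gate.

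The gene with the highest ratio outside the rule was Bace2, which encodes a membrane aspartyl protease related to beta-secretase. It was at 62.1, 69.4 and 61.3 CPM in the high gate of urolithin A, high anxiety and low anxiety, against 4.88, 4.2 and 3.85 CPM in the low gate, a mean log2 ratio of 3.77 ± 0.19. Atp10a, a flippase that moves phospholipids across membranes, was at 82.8, 110.3 and 94.1 CPM, against 10.6, 9.81 and 11.5 CPM (3.11 ± 0.29). In both genes every high gate library was far above every low gate library. Dlc1, a GTPase-activating protein gene, varied more, at 82.8, 126 and 67.8 CPM in the high gate and 4.88, 14 and 15.4 CPM in the low gate (3.08 ± 0.94).

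The other 12 of the 15 highest genes had mean log2 ratios of 2.44 to 1.88. They included further genes of small GTPase signalling: Rasgef1c, a Ras exchange factor (2.35), and Fgd4, a Cdc42 exchange factor (2.18). Membrane transporters were Slc16a10, which carries aromatic amino acids (2.44), and Slco3a1, an organic anion transporter (2.00, at 255, 259.7 and 228 CPM in the high gate against 49.6, 66.6 and 70.5 CPM in the low gate). Etv1, an ETS transcription factor, had a ratio of 2.21, and S100b, which encodes a calcium-binding protein and is a marker of the mouse oligodendrocyte state MOL2, had 1.88 (115, 110.3 and 147 CPM against 35.8, 32.9 and 30.8 CPM). Afap1l1, Dpysl5, Rnf152, Sdk2, LOC300308 and Pdzrn3 completed the list.

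The genes with the lowest ratios had a different distribution over nuclei. Tmem108, a transmembrane protein gene, was at 11.6, 19 and 10.9 CPM in the high gate of urolithin A, high anxiety and low anxiety, against 381, 569 and 273 CPM in the low gate (−4.78 ± 0.24). Only 6.96% of low gate nuclei held it, with up to 87 UMIs in 1 nucleus. The same was true of Rras2, a small GTPase, at 5.17, 8.56 and 21.9 CPM against 188, 198 and 163 CPM. Pnlip had 3 UMIs in the whole high gate and 444 in the low gate (log2 ratio of the pooled levels −6.62, −8.90 to −5.06), Cemip2, a hyaluronidase gene, had 1 and 284 (−7.56, −12.87 to −5.07), and Rin3 had 0 and 143, at least 31.6-fold lower with 3 counts over the gate in place of 0.

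These transcripts lay in a small group of low gate nuclei. Low gate nuclei with 3 or more UMIs in sum from Tmem108, Rras2, Cemip2 and Pnlip numbered 72 of 1480 (4.86%, 3.83% to 6.09%) and held 2720 of the 2862 low gate UMIs of those 4 genes. In the high gate 6 of 857 nuclei met the same limit (0.700%, 0.257% to 1.52%). The share of low gate nuclei was 4.98% in urolithin A, 5.36% in high anxiety and 4.02% in low anxiety. The 4 genes and the limit were chosen after their values were seen. Cemip2 and Rras2 are also on a list of markers of newly formed oligodendrocytes, of which 9 of 14 measured genes were lower in the high gate, with a median of −0.88, by the rule for list members used throughout (at least 1.25-fold the same way in all 3 libraries). Over all genes this rule was met by 4.78% higher and 4.99% lower. The 9 included Tcf7l2, a transcription factor of newly formed oligodendrocytes (75.0 CPM in the high gate and 293 CPM in the low gate, means over 3 libraries), Fyn, a kinase of myelination (67.7 and 163 CPM), and Nfasc (490.1 and 1263 CPM), whose glial form sits at the paranode. Enpp6 of that list was higher, at 296 and 155 CPM.

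Without the 72 nuclei, 129 of 6952 genes (1.86%) met the 1.5-fold limit as higher in each library and 87 (1.25%) met it as lower. Of the 164 lower genes 82 were still lower, and of the 130 higher genes 110 were still higher. Tmem108, Rras2, Cemip2 and Pnlip had to move, since they chose the nuclei left out. Of the lowest genes outside those 4, Tnr, which encodes the matrix protein tenascin-R, had a mean log2 ratio of −2.96 against the whole low gate and −0.04 without the 72 nuclei, Abr had −2.78 and −0.61, and Pcdh7 had −3.07 and −1.51. The newly formed list then had 3 of 12 measured genes lower, 2 higher and a median of −0.09. Enpp6 of that list lay furthest from 0, higher in the high gate with a mean log2 ratio of 3.27. By the list rule 4.32% of all genes were then higher and 3.48% lower. Against the remaining low gate nuclei the lower genes included Npr1, a receptor for natriuretic peptides (60.7 CPM in the high gate and 278 CPM in the low gate, mean log2 ratio −2.18), Lrrc7, a scaffold protein gene known from synapses (71.5 and 236 CPM, −1.71), and Ptpro, a receptor tyrosine phosphatase gene (46.7 and 148 CPM, −1.65). The Notch receptor gene Notch1 (9.43 and 27.8 CPM, −1.52) and the Notch ligand gene Dll1 (13.4 and 37.4 CPM, −1.53) were both among them. Both were sparse, with 83 and 116 UMIs in the remaining low gate nuclei. Over the libraries Notch1 ranged from −2.27 to −0.80 and Dll1 from −2.20 to −0.92. These 5 genes are from the 15 lowest ratios against that remainder, a choice made after the 72 nuclei were known. Others of the 15, with ratios below those of Notch1 and Dll1, included Dach2 (−2.25), Lims2 (−1.82) and Tmem178a (−1.78).

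**Figure D2:**
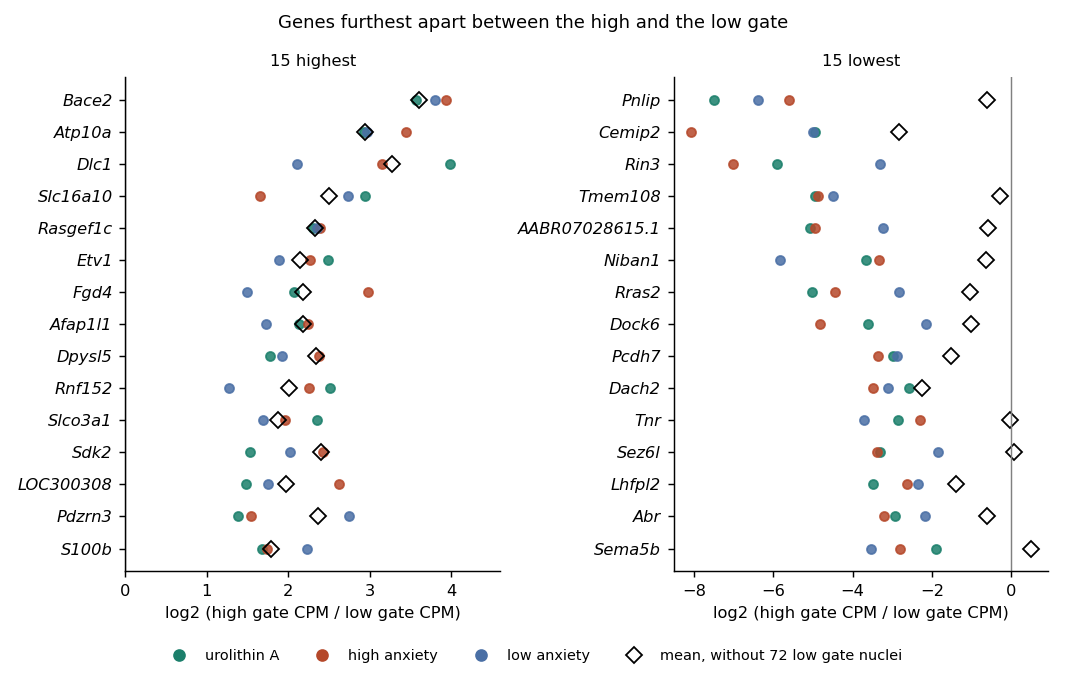
Log2 ratio of the level in the high gate over that in the low gate (horizontal axis) for the 15 highest genes (left) and the 15 lowest genes (right) outside the gate, with 1 point per library and open diamonds for the mean of the 3 libraries when 72 low gate nuclei rich in Tmem108, Rras2, Cemip2 and Pnlip are left out. The diamonds on the left lie among or near the points, at 3.60 for Bace2 and 1.79 for S100b, and most of those on the right move towards 0, such as Tnr, with a mean of −2.96 and a diamond at −0.04, while Pnlip, Cemip2, Tmem108 and Rras2 move because they chose those nuclei; Rin3 has no diamond because no UMI is left in either gate.

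Structural myelin genes were near 0 as a group, with a median log2 ratio of 0.07 over 22 measured genes, 4 higher and 4 lower. Without the 72 low gate nuclei named above, 2 of the 22 were higher and 4 lower, with a median of 0.07. Mbp, which encodes the basic protein that compacts myelin, was at 6477, 6379 and 6453 CPM in the high gate and 6829, 6492 and 6282 CPM in the low gate (−0.02 ± 0.06). The 2 groups of values overlapped for Mbp.

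Genes for 4 tetraspan membrane proteins of oligodendrocytes were lower in the high gate. Mal, which carries lipids and proteins to myelin and is itself a gate gene, was at 3418, 3508 and 2503 CPM in the high gate, against 6201, 6654 and 4754 CPM in the low gate (−0.90 ± 0.04). Cd9 was at 2399 and 4353 CPM (means over 3 libraries, −0.86), Tspan2 at 914 and 1662 CPM (−0.86) and Gjc3, a connexin gene, at 320.3 and 434 CPM (−0.44). Opalin, a gate gene and a myelin glycoprotein, was at 632 and 1006 CPM (−0.67). Another connexin gene, Gjb1, was higher instead, at 553 and 325 CPM (0.76), as were Pmp22 (779 and 551 CPM), Ndrg1 (183 and 122 CPM) and Plekhb1 (199 and 133 CPM). Among the gate genes Prr5l was at 299 and 182 CPM (0.72) and Mog at 3572 and 3488 CPM (0.03).

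Markers of mouse mature oligodendrocyte states did not sort to 1 state. Of 7 measured markers of the state MOL2, 4 were higher in the high gate: Klk6 and Slc5a11 by the rule, S100b, and Mgst3, a glutathione transferase gene (91.2 and 59.3 CPM). Cd9 and Ramp1 of the same list were lower, and the MOL2 markers Hopx and Anxa5 had 27 and 24 UMIs over both gates, too few to be measured. Of 11 measured markers of the states MOL5 and MOL6, 3 were higher and 0 lower: Anln, which encodes the actin and septin scaffold anillin (316 and 96.7 CPM, 1.72), Apod, a lipocalin gene (10024, 8537 and 9641 CPM in the high gate, 5348, 4496 and 5606 CPM in the low gate, 0.87 ± 0.08), and Glul, glutamine synthetase (331 and 194 CPM). Ptgds, the most abundant of that list beside Apod, stood at 8141 and 8820 CPM (−0.11). Without the 72 low gate nuclei named above, 3 of 11 measured MOL5 and MOL6 markers were higher and 1 lower.

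Septin8, a partner of anillin in septin filaments of myelin in mouse, was also higher, at 243 and 112 CPM (1.12). In the list of cytoskeleton and myelin growth genes that holds both, 4 of 38 measured genes were higher and 2 lower, with a median of 0.00. Genes of myelin lipid synthesis had 5 of 22 higher and 2 lower (median 0.12). The higher ones were the fatty acid elongases Elovl7 (522 and 293 CPM) and Elovl5 (245 and 148 CPM), the desaturase Scd2 (4039 and 3133 CPM), the sphingomyelin synthase Sgms1 (74.8 and 34.3 CPM) and Plaat3. Acsl3, which activates fatty acids, and Elovl6 were lower, at 183 and 351 CPM and at 172 and 255 CPM. Of 8 measured iron genes 3 were higher and 0 lower, namely transferrin, Tf (8591 and 6048 CPM), ferritin heavy chain, Fth1 (559 and 399.9 CPM), and the ferroxidase gene Cp (24.3 and 13.8 CPM). Without the 72 low gate nuclei named above, 3 of 22 myelin lipid genes were higher and 1 lower. Of 7 measured iron genes 2 were then higher and 0 lower, and of 38 cytoskeleton and myelin growth genes 3 were higher and 2 lower.

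Partners of the 4 gate genes were followed through lists of their pathways. By the list rule 4.78% of all genes were higher and 4.99% lower. Rasgrp3, Slc5a11 and Klk6 stand in these lists and were higher through the membership rule itself. Of 18 measured genes of Ras and Rap exchange, Rasgrp3 and its substrate Rap1a (506 and 339.5 CPM, 0.57) were higher. Rras2 and Rap1gap, which inactivates Rap (23.1 and 40.9 CPM), were lower. Without the 72 low gate nuclei named above, which Rras2 helped to choose, 2 of 17 were higher and 0 lower. Of 20 genes of inositol transport and phosphoinositides, Slc5a11 and the lipid kinase gene Pip4k2a (589 and 402 CPM) were higher and Pip5k1b and Inpp4a lower. Slc5a3, another inositol transporter, stood at 75.3 and 50.1 CPM without meeting the rule in all 3 libraries. Without the 72 nuclei, 4 of the 20 genes of this list were higher and 2 lower. Of 5 measured genes of kallikreins, their receptors and serpins, Klk6 and the proteoglycan gene Spock3 (1574 and 1110 CPM) were higher. Of 7 claudin and tight junction genes, the scaffold gene Magi2 was higher (3386 and 2533 CPM) and Magi1 lower (41.7 and 86.4 CPM). Cldn14 had too few UMIs to be measured. Without the 72 nuclei, Klk6 was the only higher one of 4 measured kallikrein, receptor and serpin genes. Of 7 claudin and tight junction genes 0 were then higher and 1 lower, where 4.32% of all genes were higher and 3.48% lower.

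Adhesion genes leaned lower: of 36 measured, 1 was higher and 11 lower, with a median of −0.42. Lsamp, a cell adhesion gene of the IgLON family, was at 1387 CPM in the high gate and 3960 CPM in the low gate (−1.51), Kirrel3 at 753 and 1552 CPM (−1.04), and Pcdh7, whose symbol sits on several identifiers, at 48.6 and 415 CPM (−3.07). Without the 72 low gate nuclei named above, 5 of 32 measured adhesion genes were lower, 2 higher, and the median was −0.15. In the list of node and paranode genes Hapln2 was the only higher one of 17, and 6 were lower, among them Cntn1, a contactin of the paranode (29.9 and 119 CPM). Without those nuclei 3 of 16 were higher and 2 lower.

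Transcripts of the mitochondrial genome were more abundant in the high gate in each library. They summed to 18416, 18657 and 21548 CPM in the high gate of urolithin A, high anxiety and low anxiety, against 13548, 15583 and 15540 CPM in the low gate. The 11 measured members had a median log2 ratio of 0.41, with 3 higher (Mt-nd2, Mt-nd5 and Mt-nd3) and 0 lower. Nuclear genes of oxidative phosphorylation had a median of 0.02 with 0 of 58 measured genes higher or lower, and cytosolic ribosomal protein genes likewise 0.02 with 0 of 60. Without the 72 low gate nuclei named above, 1 of 11 mitochondrially encoded genes was higher and 0 lower, with a median of 0.31. By the list rule 4.32% of all genes were then higher and 3.48% lower. Mitochondrial transcripts in nuclei can come from outside the nucleus, and whether that differs between the gates was not tested.

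Several of these differences ran on within the gates along the subset sum. Hapln2 averaged 789.5 CPM over the libraries at a sum of 0, 1586 at 1, 2044 at 2, 2262 at 3, 2847 at 4, 2974 at 5 to 6 and 2986 at 7 or more. S100b stood at 26.6, 44.6, 43.4, 65.3, 92.2, 139.8 and 200.7 CPM over the same steps. Mal ran the other way, at 5939, 5743, 4744, 4181, 3391, 2898 and 2000 CPM, and Opalin fell at each step too, to 493 CPM at 7 or more against 1022 CPM at 0. Mog showed no such run, at 3370 CPM at a sum of 0 and 3402 CPM at 7 or more. Tmem108 differed in shape: it had 627 CPM at a sum of 0 and 37.7 CPM at 1, and 10.6 to 18.9 CPM at each step from 2 up. Nuclei with more subset UMIs were also deeper, with a median of 2019 UMIs at a sum of 0 and 2900 at 7 or more.

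**Figure D3:**
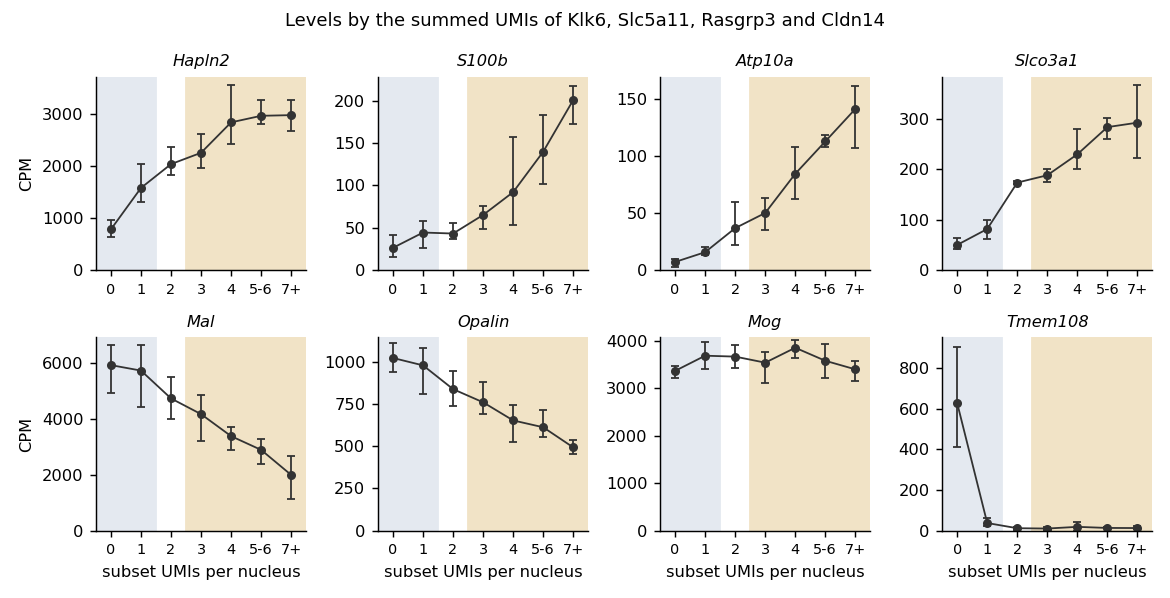
Level in CPM (vertical axes, starting at 0) of 8 genes by the number of subset UMIs in a nucleus (horizontal axes); points are means of 3 libraries, bars run from the lowest to the highest library, blue shading marks the low gate and tan shading the high gate. Hapln2, S100b, Atp10a and Slco3a1 climb across the steps, Mal and Opalin descend, Mog stays between 3370 and 3858 CPM, and Tmem108 is high only at a sum of 0.

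Members that entered through Klk6 alone were compared with those that entered without it. The 181 nuclei with Klk6 and none of the other 3 gate genes had Hapln2 at 1832 CPM, against 1038 CPM in the pooled low gate (log2 ratio 0.82, 0.71 to 0.93). The 30 nuclei with no Klk6 had 2740 CPM (1.40, 1.18 to 1.62), and the 646 with Klk6 and at least 1 other gate gene had 2887 CPM (1.48, 1.41 to 1.54). Atp10a was above the low gate by 2.59 in the nuclei with Klk6 alone (1.82 to 3.34) and by 2.98 in those without Klk6 (1.15 to 4.22). Mal was at 5187 CPM with Klk6 alone (−0.22, −0.29 to −0.16), at 2101 CPM without Klk6 (−1.52, −1.78 to −1.29) and at 2840 CPM with Klk6 and another gate gene (−1.09, −1.14 to −1.05). The nuclei with Klk6 alone were thus nearest to the low gate in both Hapln2 and Mal. These kinds of members were not matched on the subset sum, along which both genes also changed, as given above.

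The groups were compared within high gate nuclei, where membership did not use the group. The 3 comparisons share libraries: high anxiety is in both of the first 2. A gene was measured with at least 50 UMIs in 1 of the 2 libraries, which took 64.7 CPM in urolithin A, 47.6 CPM in high anxiety and 109.4 CPM in low anxiety.

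In urolithin A against high anxiety, 50 of 4136 genes (1.21%) were higher by 1.5-fold or more and 117 (2.83%) were lower by as much. In high anxiety against low anxiety, 263 of 4107 genes (6.40%) were higher and 85 (2.07%) lower, and in urolithin A against low anxiety 152 of 3184 (4.77%) were higher and 47 (1.48%) lower. In low gate nuclei, by the same rule, 2.12% of genes were higher and 2.26% lower in urolithin A than in high anxiety, 5.41% and 1.96% in high anxiety than in low anxiety, and 4.48% and 1.47% in urolithin A than in low anxiety. The minimum acts at a lower level in the deeper library, so a gene that is higher there is measured more readily. With 1 minimum level for both libraries, the counts were 50 higher and 53 lower for urolithin A against high anxiety, 49 higher and 42 lower for high anxiety against low anxiety, and 37 higher and 43 lower for urolithin A against low anxiety. With the median ratio of all measured genes set to 0 they were 61 and 109, 219 and 128, and 128 and 69. Higher genes were thus 75.6% of those past the limit in high anxiety against low anxiety as first counted, 63.1% with the median set to 0 and 53.8% with 1 minimum level.

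Levels of the subset genes lay close together in the 3 libraries, where the rule itself asked for 3 of their UMIs in each nucleus. Klk6 was at 1220 CPM in urolithin A, 1137 CPM in high anxiety and 1264 CPM in low anxiety, a log2 ratio of 0.10 (−0.02 to 0.23) for urolithin A over high anxiety and −0.15 (−0.30 to −0.01) for high anxiety over low anxiety. Rasgrp3 had −0.08 (−0.33 to 0.15) and −0.01 (−0.28 to 0.28) in the same 2 comparisons, and Slc5a11 0.07 (−0.17 to 0.30) and −0.31 (−0.57 to −0.05). Hapln2, at 2472, 2636 and 3122 CPM, had −0.09 (−0.18 to −0.01) and −0.24 (−0.34 to −0.15). Of 22 myelin protein genes, 0 were at least 1.25-fold higher and 1 lower in urolithin A than in high anxiety, and 2 were higher and 1 lower in high anxiety than in low anxiety. Those 2 were gate genes: Mal was at 3418, 3508 and 2503 CPM in urolithin A, high anxiety and low anxiety (0.49 for high anxiety over low anxiety, 0.39 to 0.58), and Ermn, which encodes the cytoskeletal protein ermin, at 344, 412 and 289 CPM (0.51, 0.23 to 0.80). Their low gate ratios were alike, at 0.48 and 0.69. Over all genes in the high gate, 8.08% were at least 1.25-fold higher and 12% lower in urolithin A than in high anxiety. The shares for high anxiety against low anxiety were 18.2% and 10.6%.

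The summed level of cytosolic ribosomal protein genes differed between the libraries. Over all 73 identifiers of the list, with no filter on low values, they summed to 4036 CPM in urolithin A (3896 to 4180), 4613 CPM in high anxiety (4484 to 4745) and 3529 CPM in low anxiety (3358 to 3705), and these intervals did not overlap. The log2 ratio of the sums was −0.19 (−0.26 to −0.13) for urolithin A over high anxiety and 0.39 (0.30 to 0.47) for high anxiety over low anxiety. By the list rule (at least 1.25-fold), 17 of 50 measured genes were lower and 1 higher in urolithin A than in high anxiety, where 12% of all genes were lower and 8.08% higher, and 25 of 50 were higher and 0 lower in high anxiety than in low anxiety, where 18.2% of all genes were higher and 10.6% lower. In urolithin A against low anxiety, 14 of 30 measured genes were higher and 1 lower, where 17.1% of all genes were higher and 8.54% lower. Rpl24 of the large subunit was at 59.5, 99.9 and 39.4 CPM in urolithin A, high anxiety and low anxiety, and Rps3a of the small subunit at 78.9, 101 and 39.4 CPM. Both had their highest value in high anxiety. Ribosomal protein genes have many near-identical copies in the genome, so single members are uncertain. The low gate showed the same order, at 4129 CPM in urolithin A, 4652 CPM in high anxiety and 3457 CPM in low anxiety, so the order was not particular to the high gate. It was also the order of total UMIs of the libraries, and whether depth plays a part was not tested.

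Mitochondrially encoded transcripts in the high gate, whose sums are given above, had a log2 ratio of −0.02 (−0.05 to 0.01) for urolithin A over high anxiety and −0.21 (−0.24 to −0.17) for high anxiety over low anxiety. In the low gate the same ratios were −0.20 (−0.23 to −0.17) and 0.00 (−0.03 to 0.04). The place of the step between libraries thus differed between the gates, and that difference was not tested. Of the 11 measured members in the high gate, 0 were higher and 2 lower in urolithin A than in high anxiety, of which Mt-nd4l stood at 75.0 CPM in urolithin A and 133 CPM in high anxiety (−0.82, −1.29 to −0.38). Nuclear genes of oxidative phosphorylation summed to 4347 CPM in urolithin A, 4213 CPM in high anxiety and 4303 CPM in low anxiety, with overlapping intervals. Of 17 measured genes of mitophagy and mitochondrial upkeep, 0 were higher and 2 lower in urolithin A than in high anxiety (median −0.01), and 2 were higher and 3 lower in high anxiety than in low anxiety (median 0.01). By the same list rule, 8.08% of all genes were higher and 12% lower in urolithin A than in high anxiety. In high anxiety against low anxiety these shares were 18.2% and 10.6%. With no filter, the 29 identifiers of that list summed to 2930 CPM in urolithin A, 3186 CPM in high anxiety and 3203 CPM in low anxiety. The log2 ratio of these sums was −0.12 (−0.20 to −0.04) for urolithin A over high anxiety, −0.01 (−0.10 to 0.08) for high anxiety over low anxiety and −0.13 (−0.22 to −0.03) for urolithin A over low anxiety, so the sum was lowest in urolithin A while the median of the measured members lay near 0 against high anxiety. In the low gate the ratio for urolithin A over high anxiety was −0.05 (−0.11 to 0.01).

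**Figure D4:**
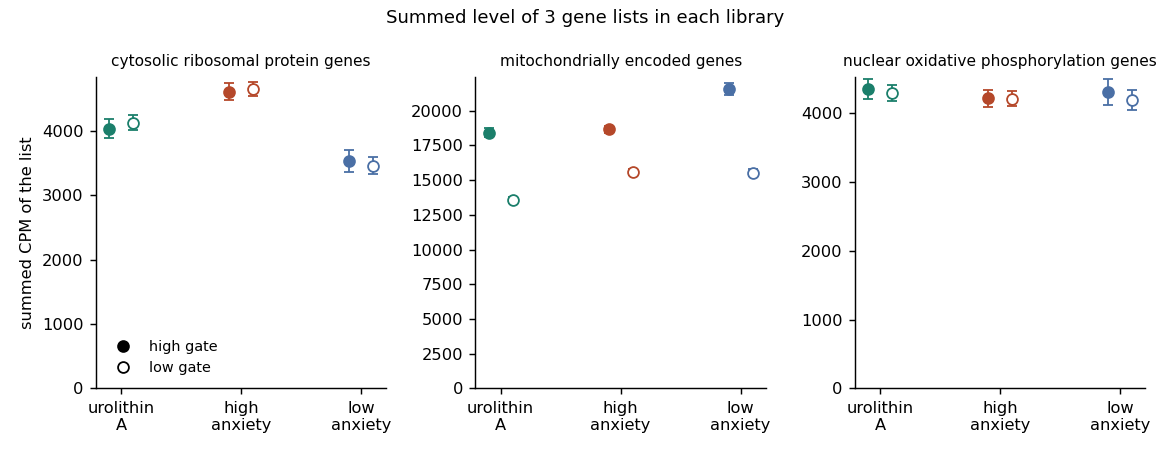
Summed level in CPM (vertical axes, starting at 0) of 3 gene lists in the urolithin A, high anxiety and low anxiety libraries; filled points are high gate nuclei, open points low gate nuclei, and bars exact Poisson 95% intervals. Ribosomal protein genes stand at 4036, 4613 and 3529 CPM in the high gate, mitochondrially encoded genes at 18416, 18657 and 21548 CPM, and nuclear genes of oxidative phosphorylation between 4213 and 4347 CPM.

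Single genes furthest apart between urolithin A and high anxiety were of 2 kinds. Some were spread over many nuclei: Cyb5r1, a cytochrome b5 reductase gene, was at 69.9 CPM in urolithin A (45 nuclei) and 27.6 CPM in high anxiety (27 nuclei), a log2 ratio of 1.33 (0.66 to 2.04), and it stood at 70.0 CPM in low anxiety. Kcnq1, a potassium channel gene, was at 111 and 46.6 CPM (1.25, 0.73 to 1.79) in 65 and 44 nuclei, and Vps52, of endosome to Golgi traffic, at 172 and 90.4 CPM (0.93, 0.54 to 1.32) in 105 and 86 nuclei. Myl12b (1.05), Vwa1 (0.90) and Phrf1 (0.85) were spread likewise. Among the lowest, Leng9 was at 36.2 and 75.1 CPM (−1.04, −1.73 to −0.41), Cul9 at 22.0 and 47.6 CPM, Cntln at 20.7 and 48.5 CPM, Gm17606 at 36.2 and 74.2 CPM and Shld2 at 32.3 and 62.8 CPM. LOC100360380, AABR07000398.1, Nrg1 and Kcnq5 had ratios of −1.09, −1.21, −1.55 and −1.08.

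Other genes rested on 1 nucleus. Of the 97 high anxiety UMIs of the neuropeptide gene Sst, 87 lay in 1 nucleus, and its ratio of −2.41 for urolithin A over high anxiety became 0.57 without the highest nucleus of each library. Kcnip4, Kcnd2 and Syt1, genes abundant in neurons, had ratios of 1.03, 0.97 and 1.05, and −0.22, −0.45 and −0.19 without those nuclei. The summed level of 12 general neuron markers in the high gate was 303 CPM in urolithin A, 268 CPM in high anxiety and 416 CPM in low anxiety, with Nrgn and Slc17a6 at 0 in all 3 and Slc17a7 at 0 in urolithin A. The 13 spiny neuron markers summed to 586, 710 and 886 CPM in the same order, none of them at 0. Caly, a gene of endosomes in neurons, had 33 of its 82 urolithin A UMIs in 1 nucleus. Its ratio did not rest on that nucleus, at 0.94 with all nuclei and 0.88 without the highest ones.

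In high anxiety against low anxiety the same 2 kinds were seen. AABR07000398.1 had 61 UMIs in 51 high anxiety nuclei (58.0 CPM, against 8.75 CPM in low anxiety, log2 ratio 2.57, 1.30 to 4.65), and its low gate ratio was 1.45. Rab11fip4, of endosome recycling, was at 78.0 and 24.1 CPM (1.64, 0.78 to 2.75), Trappc5, of vesicle tethering, at 56.1 and 17.5 CPM (1.61) and Snrpd1, of the spliceosome, at 48.5 and 17.5 CPM (1.40). Rbis (1.76), Lrrc57 (1.49) and Leng9 (1.47) were also spread over many nuclei. Low anxiety levels of these genes were under the 109.4 CPM that 50 UMIs take there.

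Nxph1 had a ratio of 4.02 and Pcdh15 one of 2.20. Nxph1 was seen in 12 high anxiety nuclei, 1 of which held 54 of its 130 UMIs, and Pcdh15 in 21, 1 of which held 28 of its 79 UMIs. Without the highest nucleus of each library the ratios were 3.73 and 2.03, and without the nuclei of highest doublet score they were −0.29 and 0.40. Precursor markers, among which Pcdh15 is counted, summed to 223 CPM in urolithin A, 308 CPM in high anxiety and 140 CPM in low anxiety over 11 genes in the high gate, with Neu4 at 0 in urolithin A and Pdgfra, Neu4 and C1ql1 at 0 in low anxiety. On the low side, Nrg3 had 154 of 201 low anxiety UMIs in 1 nucleus (−3.09, and −1.47 without it), Frmpd4 had a ratio of −1.68 with all nuclei and 0.38 without the highest ones, and Ctss, a microglial protease gene, had −1.76 and −0.42. Microglial markers summed to 60.8 CPM in urolithin A, 112 CPM in high anxiety and 258 CPM in low anxiety over 14 genes, of which 8 were at 0 in urolithin A, 2 in high anxiety and 1 in low anxiety. Astrocyte markers summed to 419 CPM in urolithin A, 419 CPM in high anxiety and 693 CPM in low anxiety over 14 genes, with Aldh1l1 at 0 in urolithin A and Fgfr3 at 0 in low anxiety, and Apoe, an astrocyte and microglia gene, was at 285, 226 and 613 CPM. The part of these markers in the group differences was not tested. Kcnip4, Dpp10, Cntnap2, Gpc5, Celf2 and AABR07025986.2 filled the rest of the 10 lowest. Of the 85 genes lower in high anxiety than in low anxiety, 16 had at least 25% of their low anxiety UMIs in 1 nucleus, against 3 of the 263 higher genes.

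**Figure D5:**
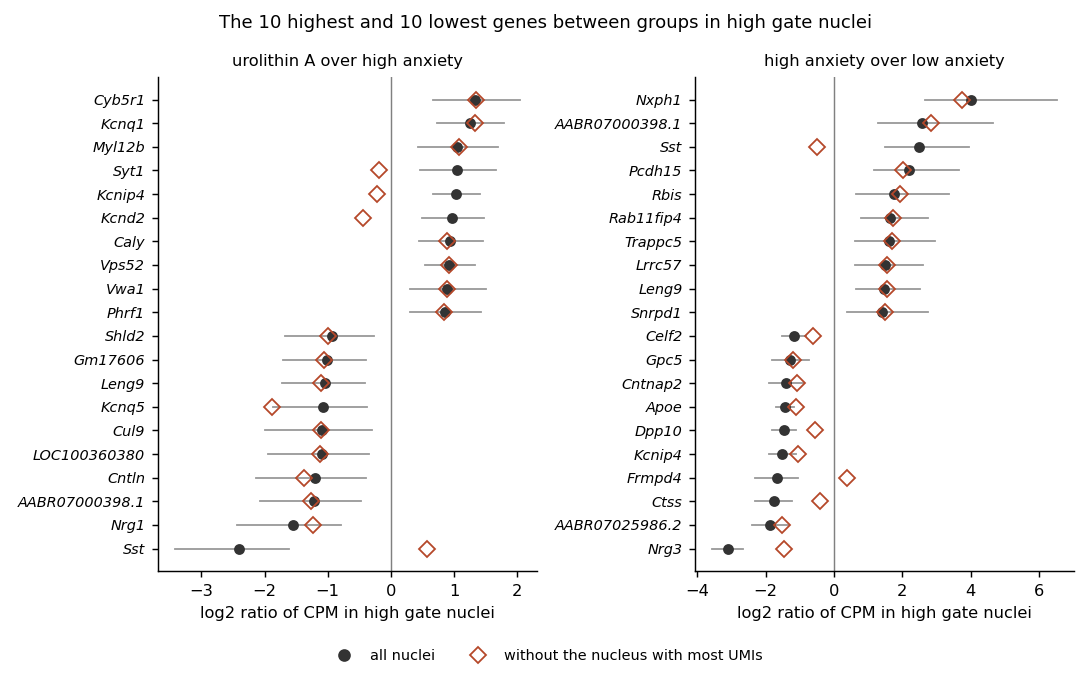
Log2 ratio of levels in high gate nuclei (horizontal axes) for the 10 highest and 10 lowest genes in urolithin A over high anxiety (left) and high anxiety over low anxiety (right); black points use all nuclei, grey lines are exact conditional 95% intervals and open diamonds leave out, in each library, the nucleus with the most UMIs of the gene. Sst, Syt1, Kcnip4 and Kcnd2 on the left and Sst and Frmpd4 on the right change sign, while Cyb5r1, Kcnq1 and AABR07000398.1 keep their side.

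In urolithin A against low anxiety, the 5 highest genes were Nxph1 (3.59), Gatad2a, of a chromatin remodelling complex (66.0 CPM in urolithin A and 21.9 CPM in low anxiety, 1.54), Zfp276 (66.0 and 21.9 CPM, 1.54), Rab11fip4 (66.0 and 24.1 CPM, 1.41) and Ints4, of the Integrator complex (84.1 and 32.8 CPM, 1.32). The 5 lowest were Nrg3, Ctss, AABR07025986.2, Frmpd4 and Cntnap2, at −3.53 to −1.62. Cryab, a small heat shock protein gene and a marker of the mouse MOL2 state, was at 378 CPM in urolithin A, 341 CPM in high anxiety and 238 CPM in low anxiety. Its log2 ratio was 0.66 (0.34 to 0.99) for urolithin A over low anxiety and 0.51 (0.20 to 0.84) for high anxiety over low anxiety, with low gate ratios of 0.57 and 0.56.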

How the data were processed

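Single-nucleus RNA libraries were prepared on the 10x Genomics Chromium platform. The authors deposited raw counts, 1 UMI count for each feature in each barcode, and per the file headers Cell Ranger 7.1.0 made them. The submitters' processing notes name the rat build, mRatBN7.2. A correction for free RNA, not given in the sources used here, was not made. The nuclei and gene lists were chosen with earlier results of these data known.

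Counts of the nuclei of each gate and library were summed and scaled to the total of that gate and library (CPM), with python 3.11.15, numpy 2.4.6, scipy 1.17.1 and pandas 2.3.3. Doublets were scored per library with the Scrublet method of scanpy 1.11.5 and kept, except in an alternative that removed the highest scores (0.8% per 1000 nuclei). Intervals are exact (Clopper-Pearson for shares and ratios, Poisson for levels), and the UMIs of 1 nucleus are not independent draws. Of 797 listed symbols 751 matched, and 194 symbols sit on several identifiers. Sums of lists take every identifier. The calculation was checked on simulated counts.

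Genes were named by rule: the 15 highest and 15 lowest between the gates among those past 1.5-fold in all 3 libraries, the 10 highest and 10 lowest for each of the first 2 group comparisons and the 5 for the third, up to 4 members of each list furthest from 0, genes fixed by name, and the 5 genes in each direction whose group ratio differed most between the gates. Not all are named in the text, and some list members are named beyond the 4. Alternatives were stricter and no filters on nuclei, doublets removed, a subset sum of at least 5, a spiny neuron sum under 3, double the UMI minimum, median centring, equal weight for each nucleus, a low gate matched in depth, thinning, and each library left out. A further 3 were added after the data were seen: the low gate without 72 nuclei, 1 minimum level for both libraries, and each gene without its highest nucleus.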

Additional observations from a re-analysis of the deposited data

Results flagged for a closer look

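Of the genes measured in both gates, 4 of 4030 (0.0993%) in high anxiety over low anxiety, 3 of 4074 (0.0736%) in urolithin A over high anxiety and 1 of 3145 (0.0318%) in urolithin A over low anxiety had a group ratio that ran one way in high gate nuclei and the other way in low gate nuclei. They were past 1.5-fold in each gate, with both counting intervals clear of 0. How many genes counting error and the spread of UMIs over nuclei would give among so many was not tested. With 1 library per group the difference between the gates was not tested. In high anxiety over low anxiety, Nxph1, a secreted ligand of neurexins, had a log2 ratio of 4.02 in the high gate and −1.33 in the low gate. Pcdh15, a cadherin gene counted among precursor markers, had 2.20 and −1.02. Nrcam, an adhesion gene of the node of Ranvier, had 0.88 and −0.83, and Zng1a had 0.96 and −0.68. In urolithin A over high anxiety, Dusp15, a phosphatase gene of oligodendrocytes, had 0.85 in the high gate and −0.73 in the low gate, Edf1 had −0.75 and 0.75, and Lrrtm4, a synaptic adhesion gene, had −0.61 and 1.04. In urolithin A over low anxiety, Nxph1 had 3.59 and −1.55. Without the highest doublet scores, the high gate ratio of Nxph1 was −0.29 for high anxiety over low anxiety. It was −1.24 for urolithin A over low anxiety. The ratio of Pcdh15 also fell without those nuclei, as given above.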

How the results depend on the processing

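No paired analysis was possible because the groups had 1 library each; the gates were compared within each library. Leaving out each library in turn gave 133 to 162 genes higher and 160 to 227 lower in the high gate than in the low gate. The limit then had to be met in fewer libraries, an easier rule, so these counts are no measure of stability. When nuclei had to show 1000 genes and a mitochondrial share of 1% or below, the high gate was 6.30%, 5.80% and 2.10% of nuclei in urolithin A, high anxiety and low anxiety, and 31.1% and 23.0% of oligodendrocyte nuclei in high anxiety and low anxiety. Counts past 1.5-fold were then 33 higher and 43 lower for urolithin A over high anxiety, 99 and 42 for high anxiety over low anxiety, and 80 higher for urolithin A over low anxiety. The log2 ratios for urolithin A over high anxiety were −0.69 for Syt1, −0.21 for Kcnip4, −0.47 for Kcnd2, 0.95 for Sst and 0.65 for Nrg1. Nxph1 was at −0.21 for high anxiety over low anxiety and Ints4 at −0.44 for urolithin A over low anxiety.

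Without the highest doublet scores, Syt1, Kcnip4, Kcnd2 and Sst were at −0.094, −0.30, −1.16 and 0.79 for urolithin A over high anxiety. Nxph1, Sst and Frmpd4 were at −0.29, −0.70 and 0.27 for high anxiety over low anxiety, and Nxph1 at −1.24 for urolithin A over low anxiety. With a subset sum of at least 5, members were 3.86%, 4.67% and 2.30% of nuclei and 14.2%, 16.4% and 11.1% of oligodendrocyte nuclei in urolithin A, high anxiety and low anxiety, with 71 genes lower for urolithin A over high anxiety and 51 for high anxiety over low anxiety. Sst was at 1.82 and −1.74 in those comparisons, Ctss at 1.68 for high anxiety over low anxiety and Ints4 at −0.16 for urolithin A over low anxiety. With a spiny neuron sum under 3, Sst was at 0.76 and −0.70.

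Double the UMI minimum left 6 genes higher and 16 lower for urolithin A over high anxiety, 68 and 20 for high anxiety over low anxiety, and 27 and 8 for urolithin A over low anxiety. Median centring gave 128 lower for high anxiety over low anxiety. Equal weight for each nucleus gave 71 lower for urolithin A over low anxiety and put Kcnd2 at −0.36 for urolithin A over high anxiety. Thinning gave 18.3%, 19.5% and 19.7% of oligodendrocyte nuclei in urolithin A, high anxiety and low anxiety.

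Among the alternatives chosen after seeing the data, the low gate without 72 nuclei gave 87 genes lower and put Sez6l at 0.077 and Sema5b at 0.51 for the high gate over the low gate. With 1 minimum level for both libraries, 53 genes were lower for urolithin A over high anxiety, 49 higher and 42 lower for high anxiety over low anxiety, and 37 higher for urolithin A over low anxiety. Without each gene's highest nucleus, 50 genes were lower for high anxiety over low anxiety, with Sst at −0.51 and Frmpd4 at 0.38. Syt1, Kcnip4, Kcnd2 and Sst were then at −0.19, −0.22, −0.45 and 0.57 for urolithin A over high anxiety. The cause was not tested for any of these. Of the list medians, 997 moved by no more than 0.1 under an alternative and 149 moved by more.

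At 2194 to 2561 median UMIs, a gene under about 50 UMIs in both libraries could not be compared between groups, and a gate of 3 UMIs misses shallow nuclei.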
